A study of Mus musculus with 6 samples.

Results

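The Frizzled genes encode the receptors of Wnt proteins, and this account follows all 10 of them, Fzd1 to Fzd10, through the skull roof of newborn mice. Membership follows from the gene name alone, although the family itself was picked with earlier results of these data known, and all 10 were among the 24346 gene names given for each library and among the 13180 whose mean reached 1 FPKM (fragments per kilobase of transcript, scaled to the mapped fragments of the library). RNA came from dissected calvaria, the flat bones of the skull with the tissue attached to them, with the interparietal and occipital parts kept in and the cartilage of the ear left out. There were 3 control libraries, from newborns of genotype Pth1rfl/fl, and 3 libraries labelled mutant, from newborns of genotype Prx1-Cre;Pth1rfl/fl. Both groups therefore carry floxed alleles of Pth1r, the gene of the receptor for parathyroid hormone and its related protein. The labelled mutants also carry Cre recombinase under a Prx1 promoter, which is known to be active in mesenchyme of the limbs and skull and leaves other cells of the tissue unrecombined. Whether each library came from a single animal, and whether controls and labelled mutants were littermates, is not stated in the labels, so p-values measure only the spread between these libraries.

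Frizzled proteins cross the cell membrane several times and bind Wnt through a cysteine-rich domain outside the cell. Together with the co-receptors Lrp5 and Lrp6 they pass the signal to Dishevelled inside the cell and so stabilise β-catenin, a route known to promote bone formation, and without these co-receptors they act in planar cell polarity. R-spondins with their Lgr receptors keep Frizzled proteins on the surface, while the ubiquitin ligases Znrf3 and Rnf43 remove them.

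Within the series, Pth1r itself had 89.2, 93.3 and 102 FPKM in controls, against 127, 125 and 142 in the libraries labelled mutant. The targeted gene was thus higher, not lower, in every library where the labels say it was deleted (ratio 1.38, adjusted p = 0.065, limma). This is a reading of the whole gene that can include exons outside the floxed part. Directions here follow the labels and nothing else. Of the 5 osteoblast markers examined, all were abundant in every library, with Col1a1 at 9427 FPKM or more and Runx2 at 28.8 FPKM or more, as the tissue label requires. All 5 had a difference above 0, and Ibsp, a bone matrix gene, rose from a mean of 908 to 1755 FPKM (adjusted p = 0.0306, limma), while Alpl (ratio 1.41) and Runx2 (1.21) had groups apart without passing. The summed level of 5 cartilage markers (Col2a1, Acan, Matn1, Col9a1 and Comp) was 1329, 1301 and 592 FPKM in controls, against 355, 258 and 289 in the labelled mutants. The 5 osteoclast markers summed to between 572 and 642 FPKM in controls and between 1559 and 1706 in the labelled mutants. Control 2 held the most inner ear transcripts, mainly Oc90 (56.6 FPKM) and Otor (22.5 FPKM), with a marker sum of 80.2 FPKM against 3.58 FPKM or less elsewhere. No source used here gave read totals; steps between the lowest values gave depths between 0.703 and 1 relative to control 1, with the 2 shallowest libraries among the labelled mutants.

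What lets a transcript be assigned to 1 Frizzled gene rather than another is its sequence, so the stretches that members share are shown first. Of the 10 members, 7 are written in a single coding exon, Fzd4 in 2, and Fzd3 and Fzd6 in 6 each (GENCODE M21). Fzd1, Fzd2 and Fzd7, the most abundant members in these libraries, are also the closest relatives, with 76.6% of aligned coding bases identical between Fzd2 and Fzd7, 70.8% between Fzd1 and Fzd2 and 69.1% between Fzd1 and Fzd7. The median of all 45 pairs was 52.3%. The longest stretches that each pair of these 3 genes has in common are written below in coding direction, all of them inside the coding sequence.
Fzd1 and Fzd2: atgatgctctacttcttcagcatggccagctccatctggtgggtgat
Fzd1 and Fzd7: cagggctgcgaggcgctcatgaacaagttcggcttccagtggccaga
Fzd2 and Fzd7: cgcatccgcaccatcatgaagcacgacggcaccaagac
These runs are 47, 47 and 38 bases long. No window of 50 bases of any member's transcript occurred in the transcript of another member, and none of Fzd1, Fzd2, Fzd7, Fzd8, Fzd9 or Fzd10 occurred in any other annotated gene. For Fzd5, 16.6% of its windows also lie in Gm38058, a provisional transcript on the opposite strand, and for Fzd6, 2.41% lie in the antisense transcript Gm26704. Whether strand was used in the authors' counting was not given, so the values of Fzd5 and Fzd6 may include fragments of these partners.

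All 10 members carry, once each, the motif through which Frizzled receptors engage Dishevelled, a lysine and a threonine followed by any 3 residues and a tryptophan. Its codons are shown for 9 members, because they are what the family has in common across a wide range of levels. The capitals mark the codons of the fixed lysine, threonine and tryptophan.
Fzd1: AAGACActgaattccTGG
Fzd2: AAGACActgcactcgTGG
Fzd7: AAGACCctgcagtcaTGG
Fzd5: AAGACTctggagtctTGG
Fzd4: AAAACTcttcacacgTGG
Fzd9: AAGACTtttcagactTGG
Fzd10: AAGACCctgcagtccTGG
Fzd3: AAGACAtgctttgaaTGG
Fzd6: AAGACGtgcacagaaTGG
What follows the motif differs, with 17 codons after it in each of Fzd1, Fzd2 and Fzd7, between 33 and 74 in Fzd4, Fzd5, Fzd8, Fzd9 and Fzd10, and 159 and 206 in Fzd3 and Fzd6.

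Levels across the family spanned more than an order of magnitude and, by mean, fell into steps. Fzd2 and Fzd1 stood highest, with means over the 6 libraries of 26.3 ± 4.68 and 26.1 ± 5.54 FPKM (SD, n = 6), and Fzd7 followed at 21.7 ± 2.65 FPKM. Fzd2 exceeded Fzd1 in 3 of 6 libraries, so the top place was shared, while Fzd7 ranked 3 in every library. A gap of 2.37 times separated Fzd7 from the middle members, and the ranges on either side of it did not overlap.

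In the middle stood Fzd8 at 9.16 ± 1.23 FPKM, Fzd9 at 8.62 ± 3.81 and Fzd6 at 8.01 ± 0.388 (SD, n = 6). Their order was not the same in all libraries, since Fzd8 exceeded Fzd9 in 4 of 6 and Fzd9 exceeded Fzd6 in 3 of 6. Those 3 were the controls, in control 3 only narrowly, at 8.50 against 8.36 FPKM. In every labelled mutant Fzd9 lay below Fzd6. Below them by mean came Fzd5 at 5.11 ± 0.956 and Fzd4 at 4.44 ± 0.321 FPKM, which overlapped each other and Fzd9. Fzd5 exceeded Fzd9 in labelled mutants 2 and 3, at 5.34 and 6.4 against 4.78 and 5.25 FPKM. After a gap of 2.86 times came Fzd10 at 1.55 ± 0.497 and Fzd3 at 1.15 ± 0.129 FPKM, which overlapped too. Among the 13180 genes tested, Fzd2 lay at percentile 77.4 of mean level, Fzd8 at 46.5 and Fzd3 at 2.03. All these are levels per transcript length, so members can be set against each other only as far as the annotated lengths hold. The annotation used was not given, and Fzd5 and Fzd6 may include fragments of their antisense partners.

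**Figure D1:**
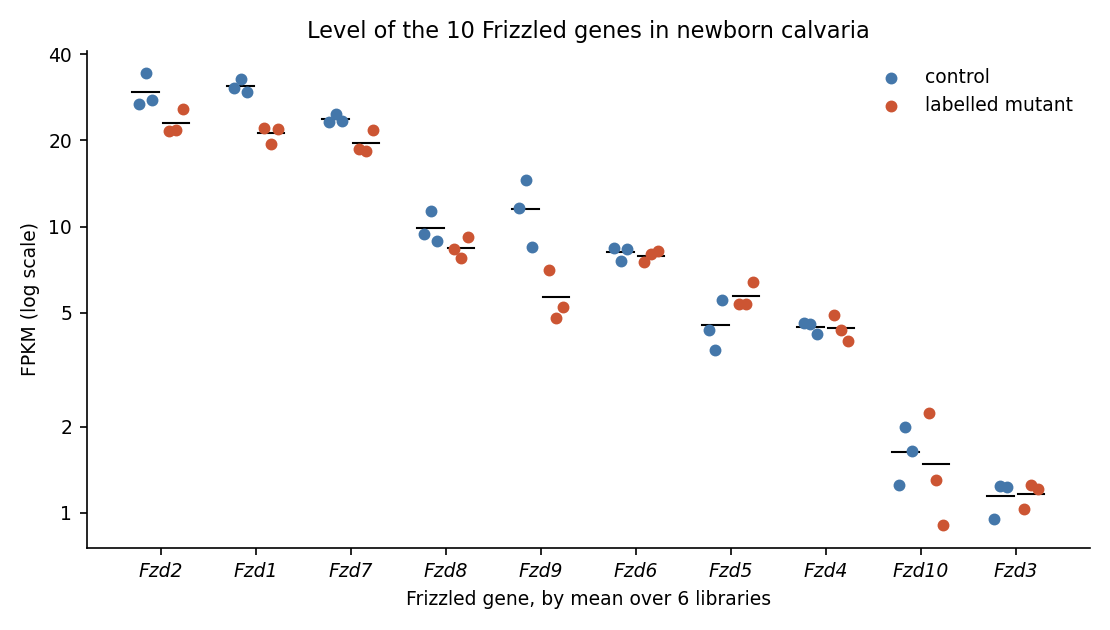
FPKM on a log axis of the 10 Frizzled genes, ordered by their mean over 6 libraries; each point is a library (blue, 3 controls; orange, 3 labelled mutant) and each bar a group mean. Fzd1, Fzd2, Fzd7 and Fzd9 show groups that do not overlap, with the labelled mutants lower, and Fzd6, Fzd4 and Fzd3 show groups that lie on each other.

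Between the groups, Fzd1 fell in the libraries labelled mutant and was the 1 member of 10 past the threshold, an adjusted p of 0.05 over all tested genes. Fzd2, Fzd7 and Fzd9 also lay lower in every labelled mutant than in any control without passing, Fzd5 had the opposite sign, and Fzd3, Fzd4 and Fzd6 had ratios of 1.02, 0.989 and 0.973. Across all 13180 genes, 0.607% passed the same threshold (limma with Benjamini-Hochberg adjustment), and 10.5% had an unadjusted p under 0.05, as did 4 of the 10 members. Groups lay apart with the labelled mutants lower in 4 of 10 members, against 6.79% of all tested genes, and apart with the labelled mutants higher in 0 of 10, against 9.34%. The median log2 difference was -0.16 over the 10 members and 0.001 over all tested genes, with 8 members below 0 and 2 above. These log2 differences are of FPKM + 1, a scale that shrinks changes of weakly expressed genes, and ratios are taken between mean FPKM. In whole tissue, fewer cells of a type and less RNA per cell cannot be told apart.

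**Figure D2:**
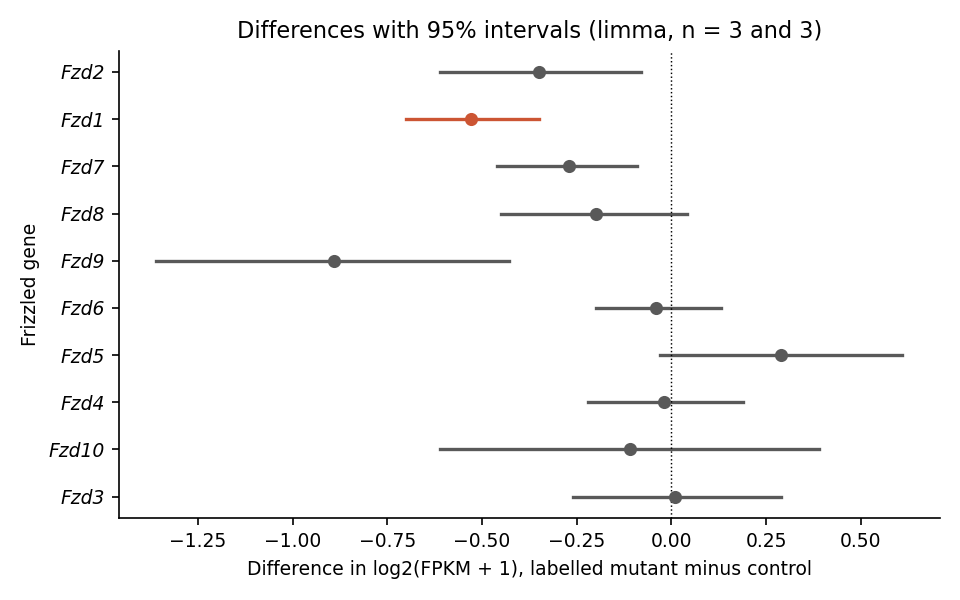
Difference in log2(FPKM + 1) between the libraries labelled mutant and the controls for each Frizzled gene, with the 95% interval from limma; the orange gene passed an adjusted p of 0.05. The intervals of Fzd1, Fzd2, Fzd7 and Fzd9 lie wholly below 0, and that of Fzd5 runs from -0.03 to 0.61.

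Fzd1, which with Fzd2 is known to be needed for closure of the palate in mice, had 30.5, 32.9 and 29.5 FPKM in controls 1 to 3, against 22.1, 19.5 and 22 in the libraries labelled mutant. The lowest control thus stood well above the highest labelled mutant. The means were 31.0 ± 1.75 and 21.2 ± 1.5 FPKM (SD, n = 3 each), a ratio of 0.685. On the log2 scale Fzd1 fell by 0.53 ± 0.07 (SE; 95% interval -0.70 to -0.35; adjusted p = 0.0379, limma), which placed it 64th by p among the 13180 tested genes. The gene lies on chromosome 5, at positions 4753839 to 4758035 of the minus strand of GRCm38, and no annotated gene overlaps it. The size of the difference ran only from -0.56 to -0.47 over 16 other settings. The call ended when any 1 library was left out, with an adjusted p between 0.0971 and 0.125, and likewise when sex (0.101) or the replicate block (0.151) was added, when every gene was kept (0.0627) and when eBayes had no trend (0.0557).

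Fzd2, for which human variants are known to cause short-limbed skeletal dysplasia, had 26.9, 34.3 and 27.6 FPKM in controls, against 21.6, 21.7 and 25.8 in the libraries labelled mutant. Labelled mutant 3 came within reach of control 1, and control 2 stood high. The ratio of means was 0.778 and the log2 difference -0.35 ± 0.11 (SE; 95% interval -0.61 to -0.08), which did not pass (adjusted p = 0.305, limma). Without control 2, the library with the most inner ear transcripts, the difference was -0.24 (95% interval -0.47 to -0.01). Fzd2 spans positions 102604396 to 102608058 of the plus strand of chromosome 11.

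Fzd7, the last of this closely related trio and a receptor known from mesoderm and stem cells, had 23.2, 24.8 and 23.3 FPKM in controls, against 18.7, 18.3 and 21.7 in the libraries labelled mutant. The controls were tight and labelled mutant 3 was the nearest to them. The ratio was 0.824 and the log2 difference -0.27 ± 0.08 (SE; 95% interval -0.46 to -0.09; adjusted p = 0.248, limma). The gene lies at positions 59482424 to 59486955 of the plus strand of chromosome 1.

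Within the trio, only the ratio of Fzd1 to Fzd7 lay apart between the groups, and no ratio was tested. The ratio of Fzd1 to Fzd7 was 1.31, 1.32 and 1.27 in controls and 1.18, 1.06 and 1.01 in the libraries labelled mutant, groups that did not overlap, a ratio singled out after its values were seen. The ratio of Fzd7 to Fzd2 had a mean of 0.809 ± 0.0740 in controls and 0.851 ± 0.0118 in the labelled mutants (SD, n = 3 each), with overlapping groups. For Fzd1 to Fzd2 the groups overlapped too, with 1.13, 0.96 and 1.07 in controls and 1.02, 0.899 and 0.856 in the labelled mutants. A ratio inside a library does not depend on how libraries were scaled to each other.

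Fzd9 had the largest log2 difference of the 10 members, though not the smallest p. Mice lacking this receptor are known to form less bone. It had 11.6, 14.5 and 8.50 FPKM in controls, against 7.04, 4.78 and 5.25 in the libraries labelled mutant. The groups did not overlap, but controls alone spread from 8.50 to 14.5, and the spread of Fzd9 within groups exceeded that of 93.0% of tested genes. The ratio was 0.492 and the log2 difference -0.89 ± 0.20 (SE; 95% interval -1.36 to -0.43), which did not pass (adjusted p = 0.144, limma). It lay between -1.08, without control 3, and -0.63, with weights for libraries, over the settings tried. The gene lies at positions 135248938 to 135251230 of the minus strand of chromosome 5.

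The libraries ranked alike for Fzd9 and for the summed cartilage markers in most places. Controls 1 and 2 were the highest in both, followed by control 3, then labelled mutant 1, labelled mutant 3 and labelled mutant 2, with controls 1 and 2 changing places. That sum is mostly Col2a1, and 4 of the 5 markers were lower in every labelled mutant, while Comp overlapped at a ratio of 1.23. Fzd1 put the libraries in the same order as Fzd9. The part of cartilage content, or of the higher osteoclast and osteoblast markers, in the levels of Fzd1 and Fzd9 was not tested. Among the markers of other tissues, the epidermal list was low, with Krt5 and Krt14 at 0.277 FPKM or less in every library, Krt15 between 0.0443 and 1.95 FPKM, and Krt10 at 1.79, 1.9 and 1.81 FPKM in controls and 1.53, 1.53 and 1.14 in the labelled mutants, each of them lower. The sums for muscle and nerve overlapped between the groups, between 7413 and 12160 against 6225 and 10409 FPKM for muscle and between 45.3 and 49.8 against 14.5 and 98.1 FPKM for nerve, where labelled mutant 2 was the highest. Within the nerve list Sox10, a marker of glia, had 2.95, 6.09 and 4.36 FPKM in controls and 2.11, 2.13 and 1.36 in the labelled mutants, lower in each one (adjusted p = 0.195, limma). The part of these tissues in the values of the Frizzled genes was not tested.

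Fzd5 and Fzd8 are relatives that act together in development of the eye, with 64.8% of coding bases identical. Fzd5 had 4.34, 3.69 and 5.53 FPKM in controls, against 5.38, 5.34 and 6.4 in the libraries labelled mutant, so that control 3 stood above 2 of the labelled mutants. Its ratio was 1.26 and its log2 difference 0.29 ± 0.13 (SE; 95% interval -0.03 to 0.61; adjusted p = 0.532, limma). That difference was 0.18 without control 2, the lowest library, 0.42 without control 3 and 0.16 with array weights. Fzd8, on the other hand, had 9.40, 11.3 and 8.89 FPKM in controls, against 8.32, 7.79 and 9.18 in the labelled mutants. Its groups overlapped too, at a ratio of 0.853 and a log2 difference of -0.20 ± 0.10 (SE; 95% interval -0.45 to 0.04; adjusted p = 0.572, limma).

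The ratio of Fzd5 to Fzd8 was 0.462, 0.325 and 0.622 in controls and 0.646, 0.685 and 0.697 in the libraries labelled mutant. Every labelled mutant thus lay above every control, though control 3 only narrowly below, a ratio likewise singled out after its values were seen. Fzd5 spans positions 64730558 to 64737751 on the minus strand of chromosome 1.

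Fzd4, the receptor of the vascular factor Norrin, had 4.6, 4.56 and 4.22 FPKM in controls, against 4.90, 4.34 and 3.99 in the libraries labelled mutant, and the groups lay on each other. Its log2 difference was -0.02 with a 95% interval from -0.22 to 0.19. Markers of vessel lining summed to between 168 and 177 FPKM in controls and between 196 and 200 FPKM in the labelled mutants over the same libraries. In the list of Norrin and related co-receptors, 0 of 3 tested genes passed. Reck, which with Adgra2 forms a Wnt co-receptor, had the smallest p, at 40.2, 37.2 and 38.6 against 31.5, 31.1 and 35.2 FPKM (adjusted p = 0.235, limma), and Adgra2 had a ratio of 0.957.

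Fzd6, known for its part in the orientation of hairs, was the steadiest member, at 8.41, 7.59 and 8.36 FPKM in controls, against 7.49, 8.01 and 8.18 in the libraries labelled mutant. The interval of its log2 difference ran from -0.20 to 0.13. Fzd3, a receptor of axon guidance, lay between 0.952 and 1.25 FPKM in all 6 libraries, with an interval from -0.26 to 0.29. Fzd10 had 1.25, 1.99 and 1.64 FPKM in controls, against 2.23, 1.30 and 0.904 in the labelled mutants. Its highest and its lowest value were thus both in labelled mutants, and its interval was wide, from -0.61 to 0.39. With a pseudocount of 0.1, which shrinks low genes less, the interval of Fzd3 widened to between -0.48 and 0.53. That of Fzd10 widened to between -0.99 and 0.60, and that of Fzd6 ran from -0.22 to 0.14.

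Summed over the 10 members, the Frizzled level was 121, 137 and 119 FPKM in controls, against 98.8, 92.3 and 105 in the libraries labelled mutant, a ratio of 0.785. The trio of Fzd1, Fzd2 and Fzd7 made up most of it, between 66.5% and 67.7% in controls and between 63.2% and 66.4% in the labelled mutants. In the controls Fzd9 held between 7.16% and 10.6% of the sum, and in the labelled mutants between 5.02% and 7.12%. Fzd5 held between 2.69% and 4.66% against between 5.44% and 6.12%, and Fzd6 between 5.54% and 7.04% against between 7.58% and 8.69%. Shares add up to a fixed total, so a lower share of some members raises that of others.

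**Figure D3:**
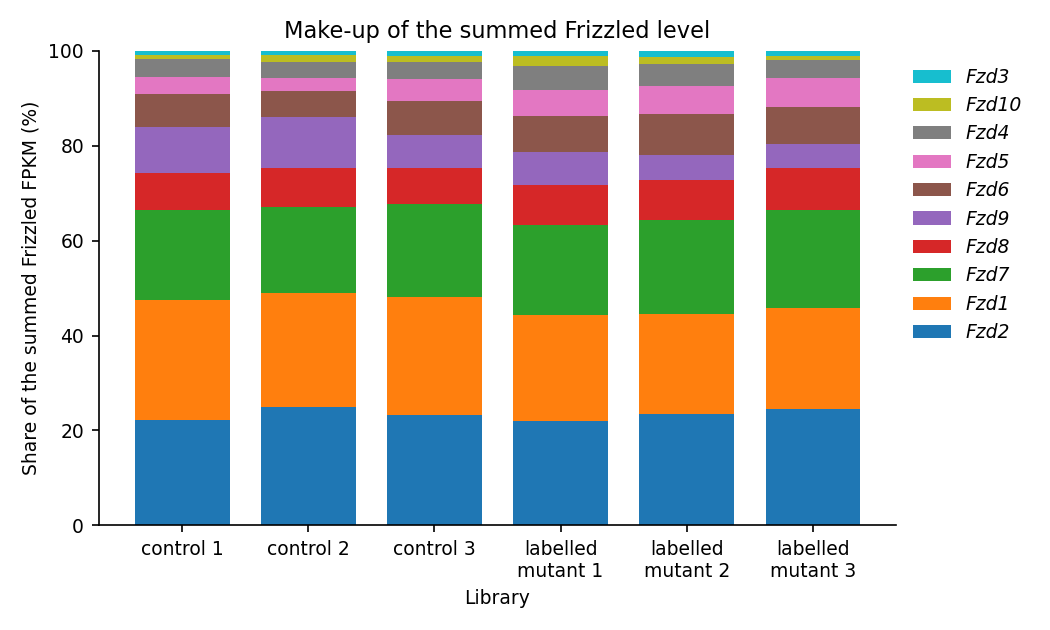
Share of the summed Frizzled FPKM held by each member in each of the 6 libraries, in percent, stacked in order of mean level from Fzd2 at the bottom. Fzd1, Fzd2 and Fzd7 together hold between 63.2% and 67.7% in every library, and the band of Fzd9 is widest in control 2, at 10.6%.

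With 2 males among the 3 labelled mutants and 1 among the 3 controls, by the levels of Xist, Ddx3y and Eif2s3y, sex was not balanced. For Fzd1 the ratio of labelled mutants to controls was 0.737 in females (1 labelled mutant, 2 controls) and 0.631 in males (2 labelled mutants, 1 control). It was 0.793 and 0.692 for Fzd2, 0.804 and 0.806 for Fzd7 and 0.7 and 0.345 for Fzd9. In all 4 every labelled mutant lay below every control, so a ratio under 1 in either sex was fixed in advance. For Fzd10 the ratio was 1.55 in females and 0.553 in males. Each of these within-sex values rests on a group of 1 library, and none was tested. The single male control was control 2, the library with the most inner ear transcripts. In the male ratios, sex and the tissue content of that library cannot be told apart.

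Windows before the transcription start show what the members that lay lower have in front of them, beside Fzd5, which had the opposite sign. RefSeq windows of GRCm38.p6 were matched by symbol for 6 members (Fzd1, Fzd4, Fzd5, Fzd7, Fzd9 and Fzd10). Each is given 5′ to 3′ in the direction of its gene and holds only bases that lie before the GENCODE transcript, which leaves 67 bases for Fzd9. The Fzd1 and Fzd7 windows end at RefSeq starts that lie further upstream than the GENCODE ones. Capitals mark 4 short motifs on either strand: the TCF/LEF core CTTTGA, the GC box GGGCGG, the CCAAT box and the TATA box TATAAA. Matches of the GC box may overlap each other.
Fzd1, chr5:4758217-4758466, minus strand: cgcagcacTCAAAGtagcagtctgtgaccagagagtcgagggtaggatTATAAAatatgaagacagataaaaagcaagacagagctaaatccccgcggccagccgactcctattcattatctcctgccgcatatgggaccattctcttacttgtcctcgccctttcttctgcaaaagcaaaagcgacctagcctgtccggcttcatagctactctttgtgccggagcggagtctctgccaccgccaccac
Fzd7, chr1:59481897-59482146, plus strand: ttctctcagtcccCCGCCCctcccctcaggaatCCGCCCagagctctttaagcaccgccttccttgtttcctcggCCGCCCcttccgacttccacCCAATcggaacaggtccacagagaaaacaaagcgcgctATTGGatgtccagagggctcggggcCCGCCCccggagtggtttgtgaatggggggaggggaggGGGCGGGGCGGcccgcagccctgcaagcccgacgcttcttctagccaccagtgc
Fzd9, chr5:135251231-135251297, minus strand: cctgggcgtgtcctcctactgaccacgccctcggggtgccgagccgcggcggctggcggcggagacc
Fzd5, chr1:64737752-64738000, minus strand: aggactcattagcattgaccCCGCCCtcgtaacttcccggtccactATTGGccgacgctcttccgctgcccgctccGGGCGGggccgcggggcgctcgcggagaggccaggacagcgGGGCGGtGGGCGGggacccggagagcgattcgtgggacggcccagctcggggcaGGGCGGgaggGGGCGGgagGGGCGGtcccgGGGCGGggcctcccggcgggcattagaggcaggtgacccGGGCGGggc
The Fzd1 window holds 1 match of the TCF/LEF core and 1 of the TATA box, which occur in 13.8% and 12.4% of all 32851 RefSeq windows of the same 250 bases, and 0 of the GC box. Fzd7 holds 6 matches of the GC box and Fzd5 holds 9, a motif found in 32.7% of all windows, with 2 and 1 of the CCAAT box, found in 33.8%. The Fzd9 window of 250 bases holds 1 GC box, which lies outside the stretch printed. Fzd1 differs from the others in base composition, with 51.2% G or C against 65.2% in Fzd7 and 76.4% in Fzd5 and Fzd9, where the median of all windows was 52.4%. These matches describe letters and are no evidence that a factor binds there.

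The genes around the receptors were read from lists of the Wnt pathway. The list on turnover of Frizzled at the cell surface was broad. It also held Kremen1, Kremen2, Apcdd1, Shisa2 and Shisa3, so its counts are not of turnover alone. Of its 14 genes, 11 were tested. Against 0.607% of all tested genes, 1 of these passed the threshold, higher, and 0 lower. That gene was Lgr4, a receptor of R-spondins that spares Frizzled from removal, at 11.7, 10.7 and 11.1 FPKM in controls, against 17.2, 15.4 and 15.5 in the libraries labelled mutant. Every labelled mutant stood above every control, a log2 difference of 0.48 ± 0.07 (SE; adjusted p = 0.0405, limma). The call ended when any 1 library was left out, with an adjusted p between 0.0974 and 0.159, and also with every gene kept (0.069), without the trend (0.055) and with the replicate block (0.0931).

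Its relative Lgr5 had 4.40, 4.93 and 4.82 FPKM in controls, against 2.47, 2.59 and 3.28 in the labelled mutants, lower in every one, and did not pass (adjusted p = 0.0711, limma), though it did with array weights (0.0235). Kremen1, which removes Lrp6 from the surface and was the most abundant of this list, had a ratio of 0.919. Of the 11 tested genes, 9 had a difference below 0, and the median was -0.16. An unadjusted p under 0.05 in limma was found for 6 of the 11, against 10.5% of all tested genes.

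In the remaining 8 lists of the pathway, 0 of 66 tested entries passed, against 0.607% of all tested genes. An unadjusted p under 0.05 in limma was found for 14 of the 66, against 10.5% of all tested genes. Among co-receptors, Lrp6 had 16.6 ± 0.955 and 14.9 ± 1.27 FPKM (SD, n = 3 each), Sdc4, a syndecan that assists polarity signalling, a ratio of 0.869, and Ptk7, a polarity co-receptor and the most abundant of the list, 0.925. Among proteins that share the cysteine-rich domain of Frizzled, the decoy Sfrp4 had a ratio of 0.820 and Sfrp1 one of 0.847. Sfrp2, the most abundant of these decoys, had 372, 306 and 361 FPKM in controls, against 275, 212 and 403 in the labelled mutants, so that the labelled mutants lay on both sides of all controls.

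Among the 19 Wnt ligand genes, 11 reached a mean of 1 FPKM. Wnt9a was the most abundant, at 21.7 ± 3.62 and 20.7 ± 2.24 FPKM (SD, n = 3 each), below Fzd1 and Fzd2 in the controls. Wnt2b and Wnt11 had the smallest p of the ligands, with ratios of 0.693 and 0.796 and every labelled mutant below every control (adjusted p = 0.22 and 0.299, limma). For the release of Wnt proteins, their carrier Wls had a ratio of 0.951, and Trabd2b, a protease that inactivates Wnt, one of 0.815.

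Inside the cell, Ctnnb1, the gene of β-catenin, had 251, 237 and 268 FPKM in controls, against 291, 270 and 300 in the libraries labelled mutant, every one above every control, with a ratio of 1.14 (adjusted p = 0.407, limma). The transcription factor gene Tcf7l2 had a ratio of 1.17. In the list of Wnt targets, 5 of 8 tested genes lay below 0, with a median of -0.27. An unadjusted p under 0.05 in limma was found for 5 of the 8, against 10.5% of all tested genes. Groups lay apart with the labelled mutants lower in 4 of the 8, against 6.79% of all tested genes. They lay apart with the labelled mutants higher in 1, Dkk1 (ratio 1.51), against 9.34%. Nkd1, an inhibitor that binds Dishevelled, had a ratio of 0.637, and Wif1, a secreted Wnt inhibitor, one of 1.27. Tnfrsf19, a receptor induced by Wnt, had a ratio of 0.682 (adjusted p = 0.195, and 0.0428 without labelled mutant 3, limma). In the planar polarity list, Prickle3 had a ratio of 1.16 with groups apart (adjusted p = 0.225, limma), and Ankrd6, a partner of Dishevelled, one of 1.30. Frizzled genes were thus not alone in having a median below 0, and no difference between lists was tested.

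**Figure D4:**
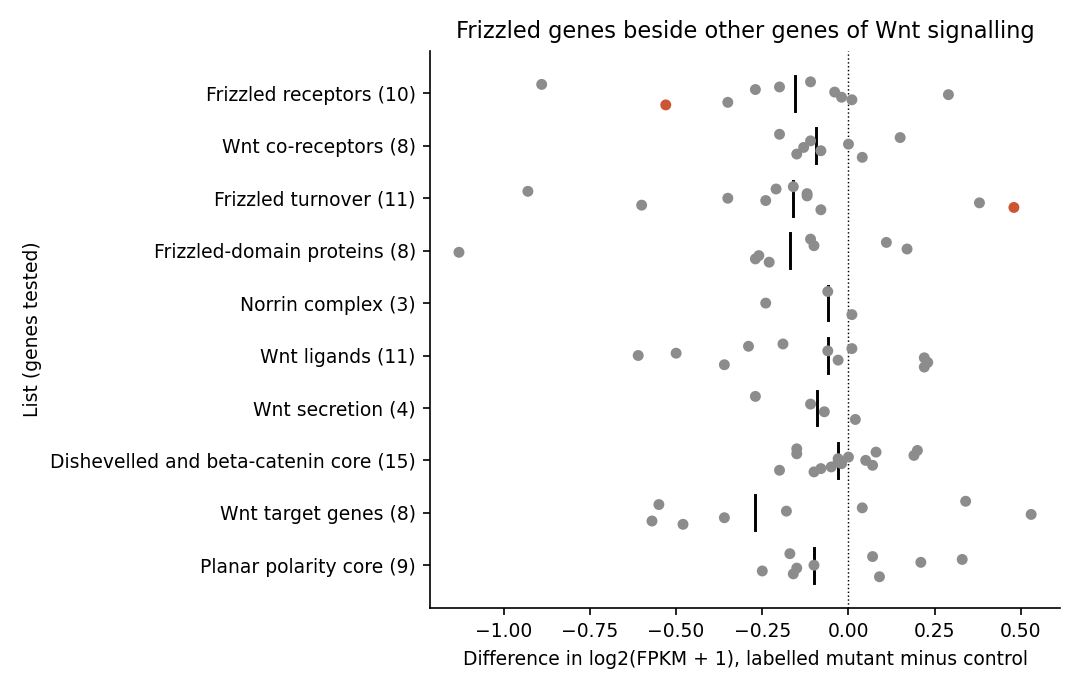
Difference in log2(FPKM + 1), labelled mutant minus control, of each tested gene in the Frizzled family and in 9 lists of Wnt signalling (number tested in brackets); points are spread vertically only to part them, the black line is the list's median, and orange marks an adjusted p under 0.05. Fzd1 and Lgr4 are the orange points, on opposite sides of 0.

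The genes whose values across the 6 libraries ran most like those of a Frizzled gene were picked by Pearson's r on log2(FPKM + 1) for the most abundant member and for the member with the smallest p. For Fzd2 they were Cenpb, a centromere protein gene (r = 0.994), Nkd1 (r = 0.992) and Telo2 (r = 0.990). For Fzd1 they were Wfikkn2 (r = 0.997), a gene of a secreted protein that binds growth factors, Boc, the gene of a Hedgehog co-receptor (r = 0.990), and Abcd3 (r = 0.990), a peroxisomal transporter gene. With Fzd1, the other members had r of 0.944 for Fzd9, 0.916 for Fzd7, 0.874 for Fzd2 and 0.809 for Fzd8, between -0.126 and 0.286 for Fzd3, Fzd4, Fzd6 and Fzd10, and -0.717 for Fzd5. All r are over 6 libraries that include both groups, and share the libraries' depth and dissection. The 3 genes named first for each member have the highest r among the 13180 tested, and all r describe these libraries only.

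The call of Fzd1 was examined under each setting beside the 3 other members with groups apart. None of Fzd2, Fzd7 and Fzd9 passed under any of the 16 other settings, with a smallest adjusted p of 0.136, 0.0942 and 0.108. Fzd1 passed under 6 of them.

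**Figure D5:**
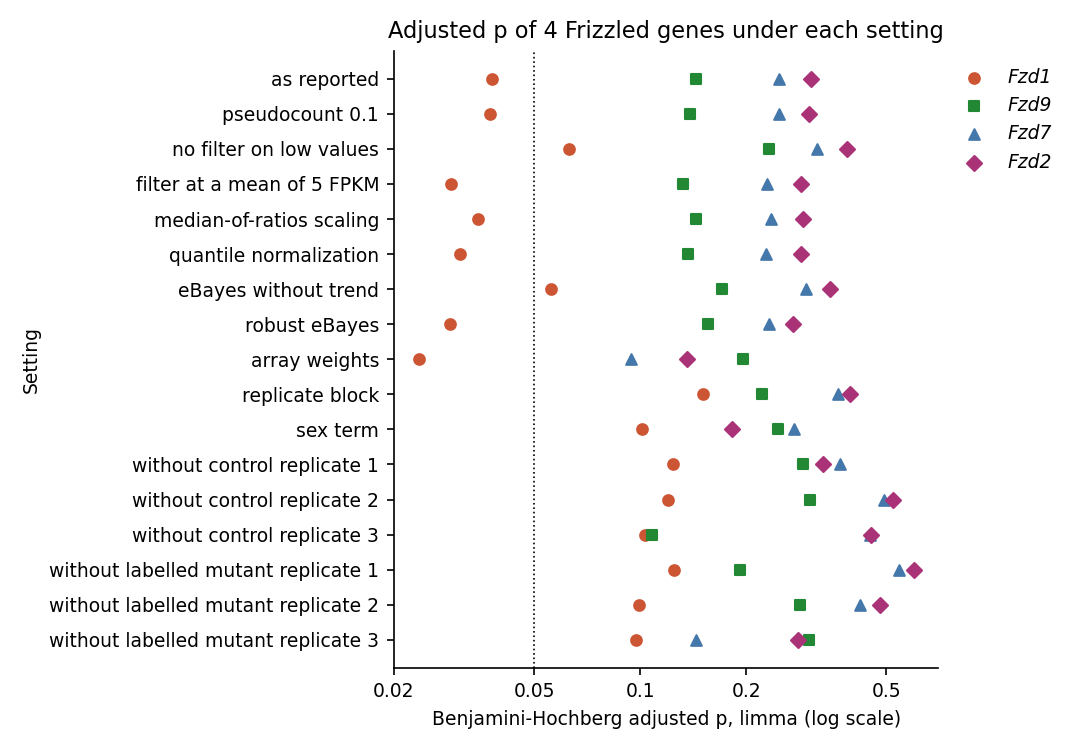
Benjamini-Hochberg adjusted p from limma, on a log axis, for Fzd1, Fzd9, Fzd7 and Fzd2 as reported and under 16 other settings; the dotted line marks 0.05. Fzd1 lies left of the line as reported and under 6 of the other settings, and right of it whenever a library was left out.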

How the data were processed

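Calvaria RNA was made into libraries with a strand-keeping kit for messenger RNA, per the labels' protocols. The deposited values are FPKM, 1 table per library, which the authors made with Cufflinks 2.2.1, TopHat2 2.0.13, SAMtools 0.1.19 and Bowtie2 2.2.3 on mm10, per the submitters' processing notes. Options, annotation, strand setting and depth: not given in the sources used here. The FPKM could not be turned into whole reads because gene lengths enter them. Cufflinks divides ambiguous fragments between similar genes by a model. Median-of-ratios factors between libraries ran from 0.9987 to 1.008.

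Genes whose mean reached 1 FPKM were tested on log2(FPKM + 1) in limma 3.58.1 (R 4.3.3; lmFit, eBayes with trend), two-sided, with group as the term and Benjamini-Hochberg adjustment over all 13180 genes. The 10 members and the pathway and marker lists were chosen with earlier results of these data known. Of 136 list genes, Mfrp and Trabd2a matched no name. Named genes are all members, and per pathway list the 2 with the smallest p, any past the threshold and the most abundant. The fit was tested on 10 sets of simulated data, each with 200 changed genes. It recovered 59% of changes of 1.5 times in FPKM + 1, 87.2% of 2 times and 96.4% of 4 times. Of its calls, 4.79% were false. Smaller changes were not simulated, so a member that did not pass may still differ. Gene models and transcript sequences are from GENCODE M21, and coding identity is from global alignment in Biopython 1.88. The sex term was chosen after seeing the data.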

Additional observations from a re-analysis of the deposited data

How the results depend on the processing

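The 16 other settings were array weights, robust eBayes, eBayes without trend, quantile or median-of-ratios scaling, a pseudocount of 0.1, every gene kept or only those averaging 5 FPKM, a replicate block, a sex term and each library left out. The 1 Frizzled gene past the threshold became 0 with no filter, without trend, with the replicate block, with the sex term and without any 1 library (0 in each of the 6 fits). Over all genes the count of 80 became 50 with no filter, 183 with array weights, 25 with the replicate block and 43 with the sex term, and between 16 and 44 without 1 library. The cause was not tested. Libraries with the same replicate number were not alike in their deviations from the group means. These correlated at 0.0163, -0.0714 and 0.0152 for numbers 1 to 3, and 0 of 6 libraries correlated best with their own number. That cannot tell whether libraries with the same number were littermates or were handled together.

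Uncalled differences near 0 changed sign. Fzd3 had -0.04 with array weights, -0.03 with the sex term and between -0.05 and 0.06 without 1 library, Fzd4 had 0.07, 0.01 and between -0.08 and 0.04, and Fzd10 had 0.09 with array weights and between -0.32 and 0.06 without 1 library. Wnt9a had between -0.15 and 0.07 without 1 library. The order of levels kept 6 of 10 places in controls alone and 7 in labelled mutants alone, and between 6 and 10 without 1 library. Calls gained were those of Lgr5, lower, and Pth1r, higher, with array weights (adjusted p = 0.0235 and 0.0458, limma) and of Tnfrsf19, lower, without labelled mutant 3 (0.0428). Without read totals no counting error could be given, so what depth limits is unknown.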

Other observations

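Of the genes with the Frizzled type of cysteine-rich domain, the decoy Sfrp5 had 9.87 FPKM in control 2 and 0.554 FPKM or less in the other 5 libraries, and control 2 was also the library with the highest sum of inner ear markers, 80.2 FPKM. Control 2 had the highest value of Fzd1, Fzd2, Fzd7, Fzd8 and Fzd9 too, and without it the log2 differences of these genes were -0.48, -0.24, -0.24, -0.11 and -0.73. It had the lowest value of Fzd5, whose difference was 0.18 without it. The part of inner ear tissue in these values was not tested.

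Among Wnt ligand genes under a mean of 1 FPKM, Wnt10a had 0.505, 0.562 and 0.422 FPKM in controls, against 0.0917, 0.114 and 0 in the libraries labelled mutant, and Wnt1 had 1.11, 0.996 and 0.552 against 0.297, 0.463 and 0.410 FPKM. Both were singled out after their values were seen, lie below the filter and were not tested.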
